A study of Mus musculus with 6 samples.

Results

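Cytochrome P450 genes encode heme enzymes that oxidise foreign compounds, fatty acids, sterols and signalling lipids, and they were followed here in RNA sequencing of the mouse duodenum. Gene models were taken by symbol (Cyp, a family number and a subfamily letter, which leaves out Cyp51) and kept where the level was at least 0.5 FPKM, fragments per kilobase of transcript, scaled to the mapped fragments of the library, in at least 3 of 6 libraries. This left 44 genes of 101 P450 gene models, among 23699 gene models of all kinds. They comprised 9 Cyp2c, 4 Cyp2d, 6 Cyp3a, 2 Cyp4a and 7 Cyp4f genes and 16 genes of other subfamilies. The study compared 3 control and 3 mutant samples of adult mice of mixed background at 6 weeks of age. Controls were Nkx2.2flox/+, and therefore carried 1 floxed allele and no Cre. Mutants were Nkx2.2flox/flox; Villin-Cre/+, and mutant 3 also carried Rosa26Tomato/+, a reporter allele. All samples shared at least 1 floxed allele, and Cre was present in the mutants alone. Villin-Cre is active in the intestinal epithelium, whereas the RNA came from the whole wall of the duodenum next to the stomach, which also holds muscle, connective tissue, nerve and immune cells. The labels do not say that each sample was a separate animal, so p-values cover only the spread from sample to sample, which may be technical. In such bulk tissue, fewer cells of a type and less RNA per cell cannot be told apart.

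P450 enzymes of the endoplasmic reticulum receive electrons from the reductase encoded by Por, and those of mitochondria from ferredoxin. In the small intestine they sit mainly in absorptive enterocytes of the villus, where Cyp3a enzymes oxidise swallowed drugs and toxins before these reach the liver. Many of their genes are switched on by sensors of foreign or dietary compounds: the pregnane X receptor Nr1i2, the constitutive androstane receptor Nr1i3, the aryl hydrocarbon receptor Ahr and the fatty acid receptor Ppara.

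Both libraries numbered 3 stood apart from the other libraries in both genotypes, and this touched most of what follows. Summed over 10 enterocyte markers, control 3 held 17928 FPKM and mutant 3 held 21992 FPKM, against 35888 to 46229 FPKM in the other libraries, and 9 of the 10 markers were lowest in library 3 of both groups. The sums rest mostly on the most abundant markers, and the size of the drop differed among markers. Apoa4 lay at 2676 FPKM in control 3 and 3924 FPKM in mutant 3, against 7837 to 10372 FPKM elsewhere. Vil1 lay at 561 and 528 FPKM, against 578 to 702 FPKM elsewhere. Reg3b, an antimicrobial lectin induced by inflammation, lay at 42934 FPKM in control 3 and 47743 FPKM in mutant 3, against 207 to 5823 FPKM elsewhere. Over its list of 8 inflammation-induced defence genes the sums were 56572 and 62976 FPKM against 1115 to 7799 FPKM, with 6 of 7 tested genes highest in library 3 of both groups. Smooth muscle markers summed to 746 and 609 FPKM against 407 to 464 FPKM, and all 5 were highest in library 3 of both groups. The Nkx2-2 transcript itself did not separate the groups, at 1.13, 1.32 and 0.779 FPKM in the controls 1 to 3 and 1.10, 0.736 and 0.221 FPKM in the mutants 1 to 3, and the floxed exons are not named in the labels. Xist, the RNA of the inactive X chromosome, lay at 19.7 and 22.5 FPKM in the mutants 2 and 3 and at most at 0.0894 FPKM in the other libraries, while the Y-linked Ddx3y lay at 11.4 to 13.8 FPKM in those others and at most at 0.0474 FPKM in the mutants 2 and 3. Sex is not in the labels, both libraries with Xist were mutants, and the effects of sex and genotype cannot be told apart in full. Depth, estimated from the deposited FPKM and coverage, was 21 to 26.3 M fragments per library. Sums for exocrine pancreas markers were 12968 to 21072 FPKM in controls and 3000 to 13318 FPKM in mutants, lowest in mutant 3. All 13 tested gene models of that list of 10 genes had a lower mean in mutants. Amy2a5 has several near-identical gene models, and each was counted in the sums and in the 13. Brunner gland and stomach markers summed to 141 to 8608 FPKM, lowest in mutant 3 and highest in control 2, with repeated gene models of Tff1 each counted. Gkn2 and Tff1 lay at 207 and 136 FPKM in control 2, against at most 1.28 and 2.64 FPKM in the other libraries. Sums for the proximal duodenum varied little (810 to 1071 FPKM), with Slc40a1 the largest part at 418 to 598 FPKM. Of the 6 markers, 2 were lowest in library 3 of both groups. Cybrd1 was the more uneven of these, at 105 FPKM in control 3 and 124 FPKM in mutant 3, against 147 to 285 FPKM elsewhere. Hepatocyte markers summed to at most 1.503 FPKM and steroid tissue markers to at most 1.28 FPKM, with Cyp7a1, Fga, Fgb and Cyp21a1 listed at 0 in every library. Ileum markers summed to at most 2.20 FPKM.

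The 44 genes covered a wide range of levels. A mean of at least 100 FPKM was found for 8 genes, 10 to 100 for 12, 1 to 10 for 16 and under 1 for 8. Cyp3a13 and Cyp3a11 were the most abundant, and together they held 30.6 to 52.1% of the summed P450 FPKM of a library. In mm9 coordinates the 9 Cyp2c genes lay on chromosome 19 between 39081509 and 44103737, the 6 Cyp3a genes on chromosome 5 between 138334161 and 146924859, and the 4 Cyp2d genes on chromosome 15 between 82200957 and 82624675. Both Cyp4a genes lay on chromosome 4 between 115190892 and 115294971, and 6 of the 7 Cyp4f genes on chromosome 17 between 32643407 and 33084306. Neighbouring members are close copies, which bears on how far their reads can be assigned: 17 of the 44 genes shared more than 10% of their 50-base windows with another transcript, up to 64.5% for Cyp2c40. Cyp2c67 (53.5%), Cyp2c69 (51.4%), Cyp4a32 (46.8%) and Cyp2c68 (43.3%) followed, and their levels are uncertain for that reason. Cyp3a11 shared 14.7%, Cyp3a44 18.2%, Cyp3a25 25.5% and Cyp3a59 28.3%, so their levels are less certain too. Cyp3a25 and Cyp3a59 share mostly with each other and are not independent measurements. Cyp2c29 shared 0.476%, and Cyp3a13 none.

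**Figure D1:**
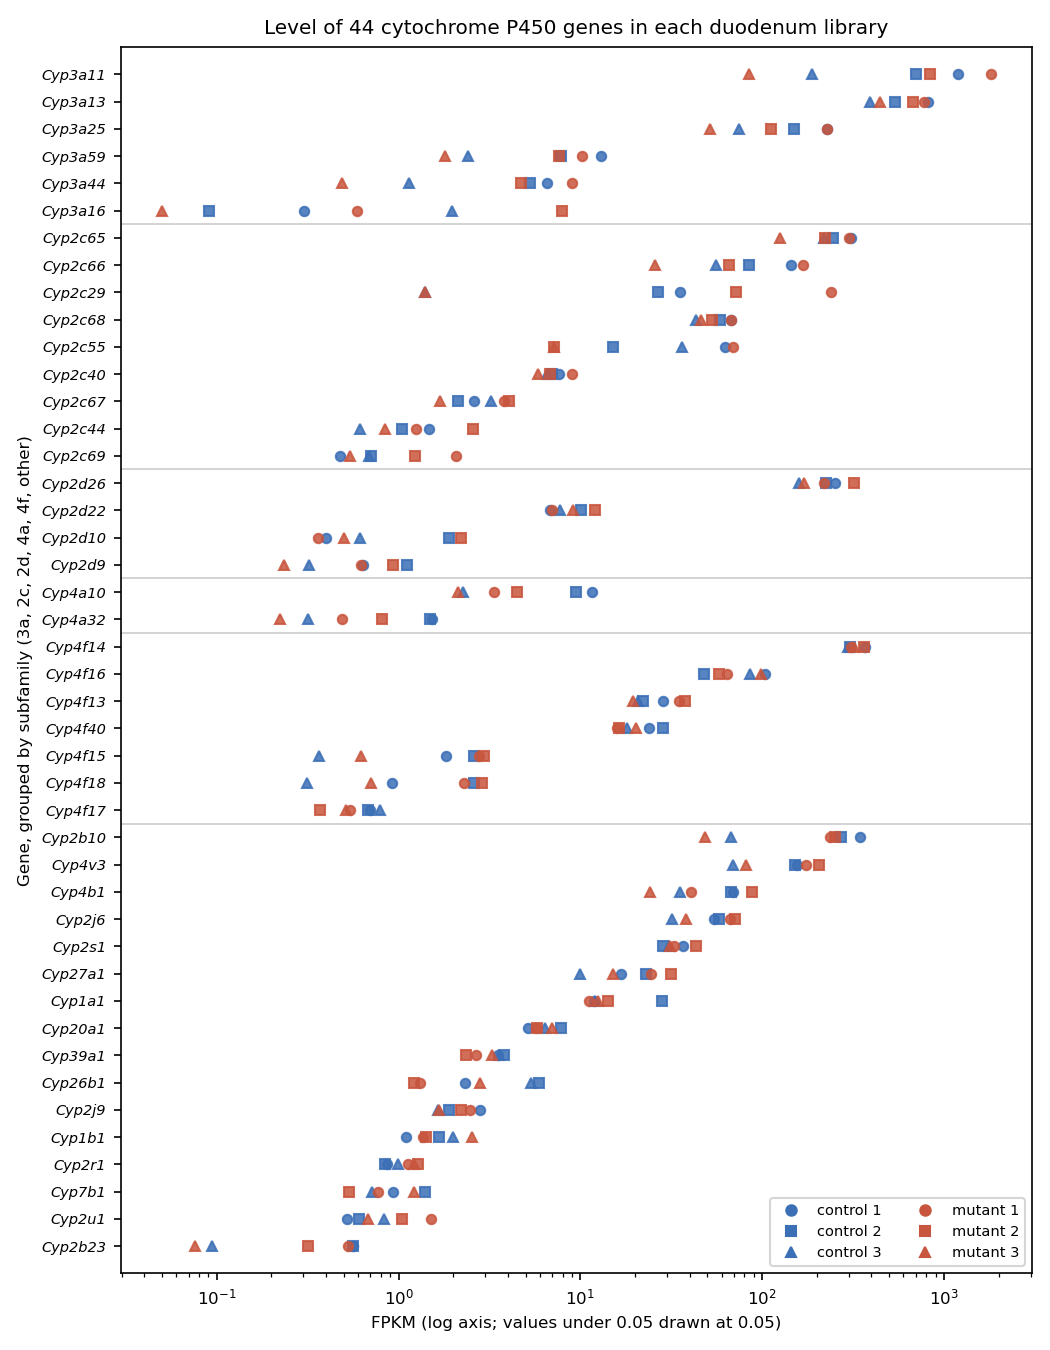
FPKM (log axis) of the 44 P450 genes, grouped by subfamily, with 1 point per library (blue, control; red, mutant; circles, squares and triangles for libraries 1, 2 and 3). The triangles lie to the left for Cyp3a11, Cyp2c29 and Cyp2b10 in both groups, and the colours are mixed for most genes.

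Promoters of 4 genes are shown because they pair 2 genes that lay far lower in both libraries numbered 3, Cyp3a11 and Cyp2c29, with an abundant and steadier gene of the same subfamily, Cyp3a13 and Cyp2c65. Each runs 5′ to 3′ on the gene's strand from 250 bases before to 50 bases after the start in RefSeq (GRCm38.p6), and capitals mark matches to the motifs searched on both strands. The windows are chr5:145879805-145880104 (minus strand) for Cyp3a11, chr5:137921570-137921869 (minus) for Cyp3a13, chr19:39286835-39287134 (plus) for Cyp2c29 and chr19:39060756-39061055 (plus) for Cyp2c65.
Cyp3a11: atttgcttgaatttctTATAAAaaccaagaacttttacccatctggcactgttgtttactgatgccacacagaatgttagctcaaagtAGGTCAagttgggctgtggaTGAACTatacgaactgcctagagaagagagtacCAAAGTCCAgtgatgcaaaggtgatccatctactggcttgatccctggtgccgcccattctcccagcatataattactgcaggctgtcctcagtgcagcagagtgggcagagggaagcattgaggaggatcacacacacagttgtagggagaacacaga
Cyp3a13: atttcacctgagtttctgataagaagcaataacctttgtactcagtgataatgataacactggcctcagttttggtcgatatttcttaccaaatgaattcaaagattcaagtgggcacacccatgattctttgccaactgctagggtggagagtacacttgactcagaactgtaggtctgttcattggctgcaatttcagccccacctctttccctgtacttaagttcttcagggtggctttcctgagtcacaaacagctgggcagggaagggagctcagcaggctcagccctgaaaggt
Cyp2c29: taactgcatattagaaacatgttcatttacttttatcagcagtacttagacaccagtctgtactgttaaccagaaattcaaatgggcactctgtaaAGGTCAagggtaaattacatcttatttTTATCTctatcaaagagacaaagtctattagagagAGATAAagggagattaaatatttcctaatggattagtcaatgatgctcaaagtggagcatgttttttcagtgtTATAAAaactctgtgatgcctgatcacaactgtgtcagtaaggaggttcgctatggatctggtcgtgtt
Cyp2c65: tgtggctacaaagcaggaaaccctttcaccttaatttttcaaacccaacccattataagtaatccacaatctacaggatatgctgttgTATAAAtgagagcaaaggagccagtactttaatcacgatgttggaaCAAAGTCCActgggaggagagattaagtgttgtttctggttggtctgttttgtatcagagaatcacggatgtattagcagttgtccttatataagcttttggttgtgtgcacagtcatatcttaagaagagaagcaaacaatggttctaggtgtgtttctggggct
The motifs were the TATA box TATAAA, the HNF4 motif CAAAGTCCA, the nuclear receptor motifs AGGTCA and AGTTCA, the aryl hydrocarbon element TNGCGTG, the PAR bZIP element TTATGTAA, the HNF1 motif GTTAAT and the GATA site AGATAA. No motif is contained in another. Cyp3a11 held TATAAA at -234 from the start, AGGTCA at -162, AGTTCA on the other strand at -142 and CAAAGTCCA at -109. Cyp2c29 held AGGTCA at -154, AGATAA at -92, AGATAA on the other strand at -127 and TATAAA at -19. Cyp2c65 held TATAAA at -162 and CAAAGTCCA at -116, and none of the 8 motifs matched in Cyp3a13. Promoters were found for 37 of the 44 genes, in 42 windows. CAAAGTCCA was present in 7 of these windows (16.7%, against 0.475% of all 32851 promoters), those of Cyp3a11, Cyp3a16, Cyp2c40, Cyp2c65, Cyp2c67, Cyp2c68 and Cyp2c69, genes of 2 clusters of close copies, whose windows are therefore not independent. TATAAA was present in 38.1% of the windows, against 13.6% of all promoters. For AGGTCA the shares were 16.7 and 16.3%, for AGTTCA 16.7 and 14.0%, for GTTAAT 16.7 and 7.10%, for AGATAA 19.05 and 11.2% and for TNGCGTG 2.38 and 5.07%. TTATGTAA matched in none of the 42 windows and in 0.938% of all promoters. A match is a string of letters and does not show that a factor binds.

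The design compares P450 levels in duodenum with and without the mutant genotype, and none of the 44 genes passed the test. With limma on log2(FPKM + 0.5) and Benjamini-Hochberg adjustment over 13596 genes, 0 of 44 P450 genes passed an adjusted p of 0.05, where 0.0221% of all genes did, 0.00736% higher in mutants and 0.0147% lower. The adjusted p was 0.999 for each of them. An unadjusted p under 0.05 was found for 2 of 44 (4.55%), Cyp26b1 and Cyp39a1, against 3.43% of all genes. The group mean was higher in mutants for 21 genes and lower for 23, with a median log2 change of -0.01, against -0.02 over all genes. A p that misses the threshold does not show that the groups were alike, and the standard errors of several abundant genes were large. Limma-voom on reads rebuilt from coverage also called 0 of 44, with 2 at an unadjusted p under 0.05. In the authors' deposited table the adjusted p was 1 for all 44 genes, and 1 of them had an unadjusted p under 0.05, against 2.16% of the genes with a p.

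**Figure D2:**
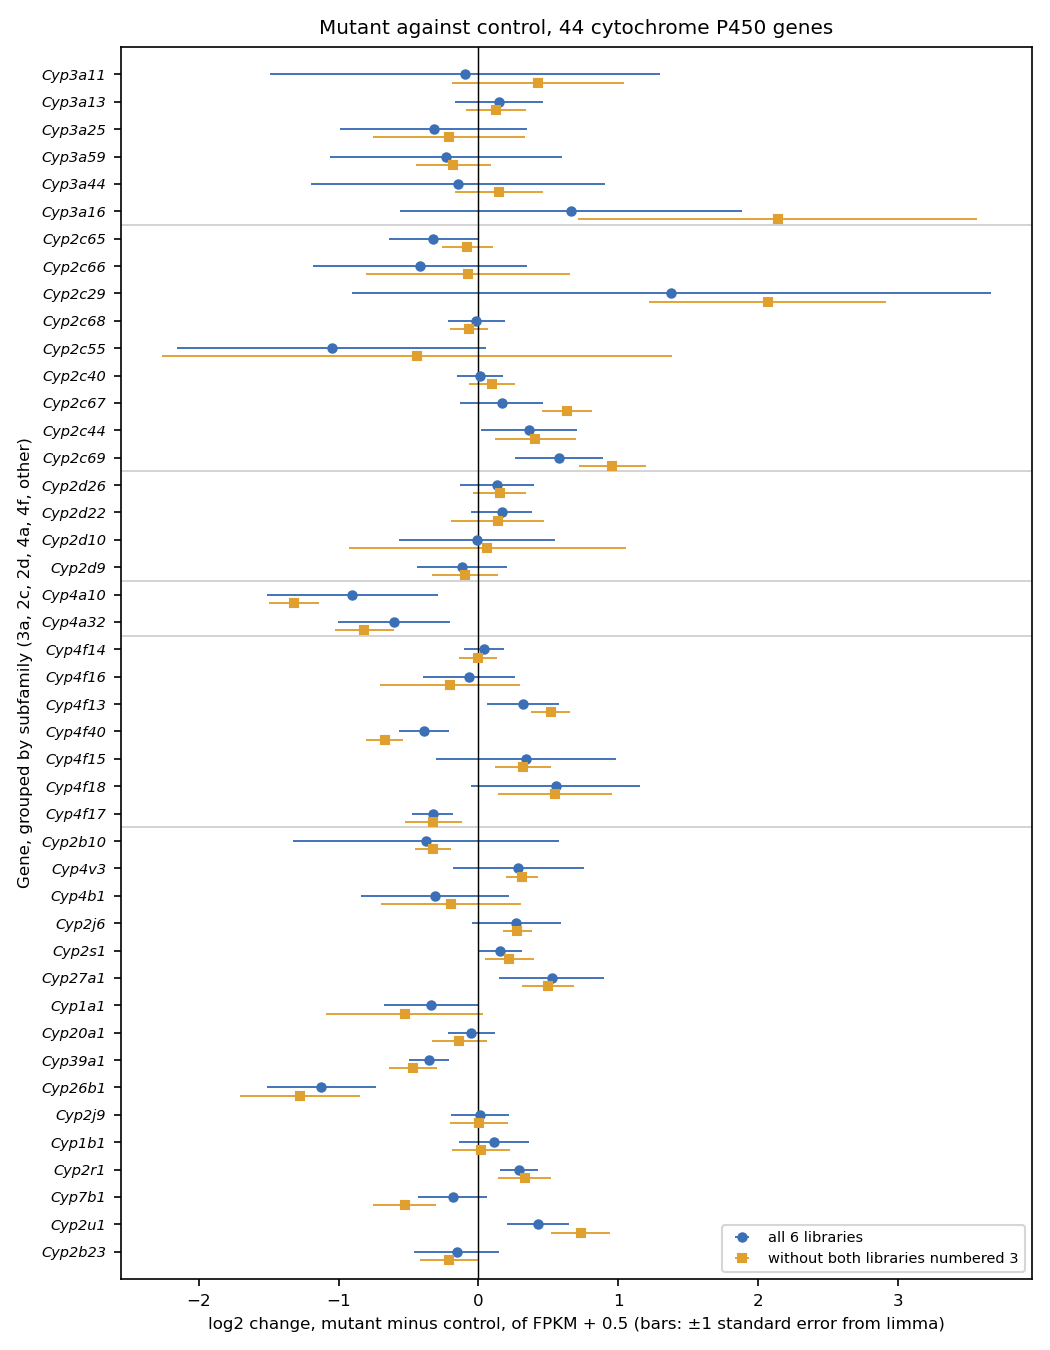
Log2 change (mutant minus control, of FPKM + 0.5) of the 44 P450 genes with the standard error from limma, for all 6 libraries (blue) and without both libraries numbered 3 (orange). The adjusted p was 0.999 for every gene with 6 libraries. Cyp4a10 and Cyp4f40 lie below 0 by more than their standard error in both fits. So do others, among them Cyp26b1, Cyp39a1, Cyp4f17 and Cyp4a32, while Cyp2c69, Cyp2r1 and Cyp2u1 are among those above 0 in that way.

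FPKM did not overlap between the groups for 3 of the 44 genes, 1 higher in mutants (2.27%, against 4.05% of all genes) and 2 lower (4.55%, against 3.71% of all genes). Counted in either direction, 7.75% of all genes did not overlap. The higher one was Cyp2r1 and the lower ones were Cyp39a1 and Cyp4f17, all at low levels.

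The contrast that most P450 genes shared was between the libraries numbered 3 and the others. In 25 of 44 genes (56.8%) both libraries numbered 3 lay below all 4 other libraries, against 11.4% of all genes tested, and library 3 was the lowest of both groups in the same 56.8% against 15.2% of all genes. Library 3 was the highest of both groups for 1 P450 gene (2.27%), against 31.4% of all genes. Library 1 was the highest of both groups for 13 P450 genes (29.5%), against 4.78% of all genes, and library 2 for 8 (18.2%), against 9.49%. The median log2 difference of control 3 from the other controls was -0.53 over the 44 genes and 0.03 over all genes, and for mutant 3 from the other mutants it was -0.71 and 0.13. This pattern was chosen after the values had been seen and is given without a test. The lower enterocyte sums and the higher defence and smooth muscle sums of the same libraries moved with it, and their part in it was not tested.

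**Figure D3:**
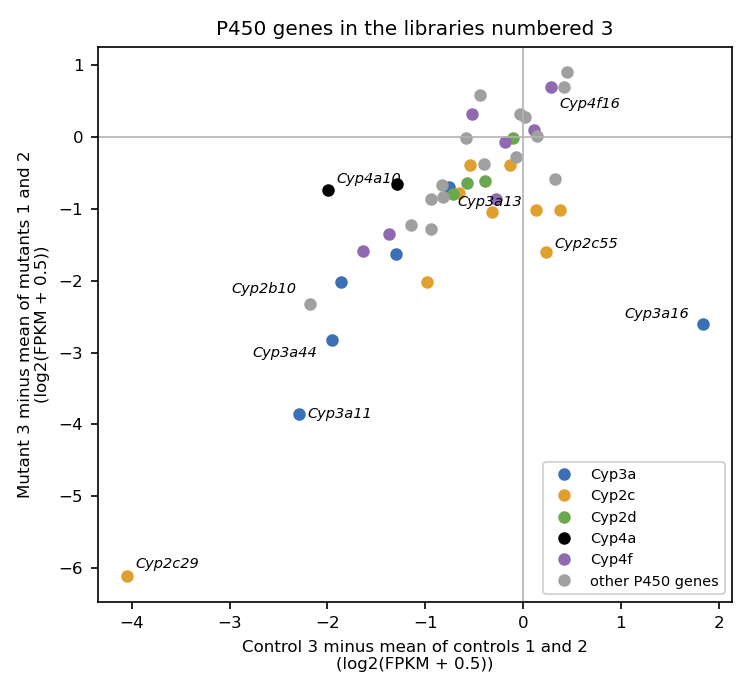
Difference of library 3 from the mean of libraries 1 and 2 on the log2(FPKM + 0.5) scale, in controls (x axis) and mutants (y axis), for each of the 44 P450 genes. Most points lie in the lower left, with Cyp2c29 and Cyp3a11 farthest, and Cyp3a16 and Cyp2c55 go opposite ways in the 2 groups.

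By subfamily, both libraries numbered 3 lay below all 4 others for 5 of 6 Cyp3a, 6 of 9 Cyp2c, 2 of 4 Cyp2d, 2 of 2 Cyp4a, 3 of 7 Cyp4f and 7 of 16 other genes. The summed level of Cyp3a genes was 2270, 1404 and 663 FPKM in the controls 1 to 3 and 2833, 1655 and 586 FPKM in the mutants 1 to 3. Cyp4f genes summed to 529, 409 and 422 FPKM in the controls and 429.8, 482 and 461 FPKM in the mutants. Library 3 was thus the lowest of each group for the Cyp3a sum, at 0.361 times the mean of libraries 1 and 2 in controls and 0.261 times in mutants, and close to the others for the Cyp4f sum (0.900 and 1.01). As a share of all P450 FPKM, Cyp3a genes went from 51.5% in control 1 and 57.1% in mutant 1 to 34.8% in control 3 and 34.2% in mutant 3, and Cyp4f genes from 12.0 and 8.67% to 22.2 and 26.9%. Most of the Cyp4f sum came from Cyp4f14, with 323 of 453 FPKM in controls and 331 of 458 FPKM in mutants by mean. The quantification of Cyp4f14 carried the status FAIL in 5 of the 6 libraries, as given below. Total P450 FPKM was 3156 ± 1254 in controls and 3437 ± 1630 in mutants (mean ± SD, n = 3), a ratio of 1.09. The group ratio of the sums was 1.17 for Cyp3a, 1.05 for Cyp2c, 1.11 for Cyp2d, 1.01 for Cyp4f and 0.975 for the other genes, all smaller than the spread within groups. For Cyp4a genes it was 0.432, from 8.86 ± 5.55 to 3.83 ± 1.46 FPKM.

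**Figure D4:**
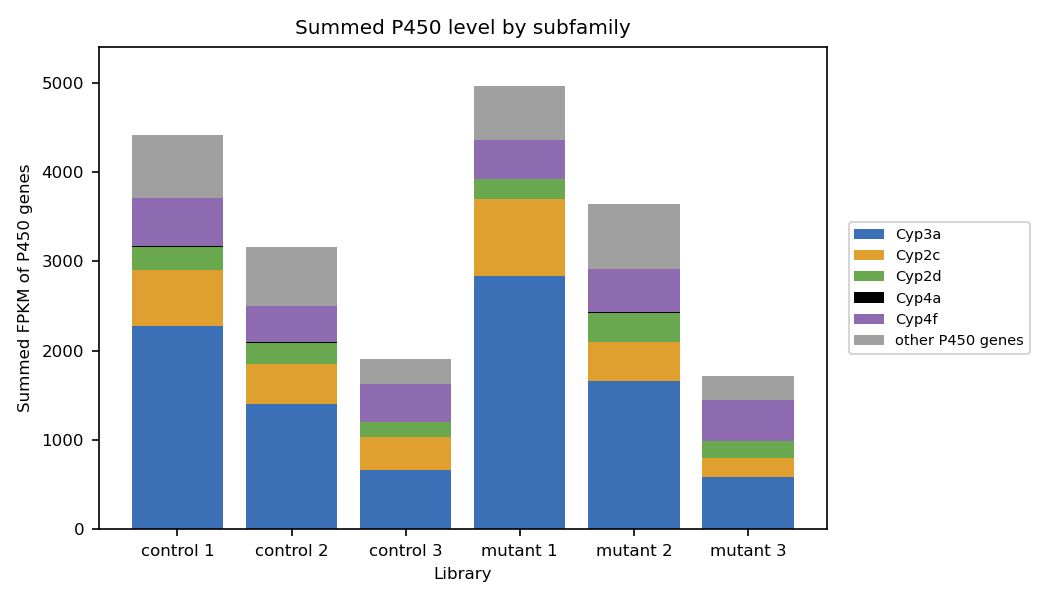
Summed FPKM of the P450 genes in each library, stacked by subfamily. Most of the Cyp4f segment is Cyp4f14, whose quantification carried the status FAIL in 5 of the 6 libraries. The bars of control 3 and mutant 3 are the shortest, at 1902 and 1716 FPKM, mainly through the Cyp3a segment, while the Cyp4f segment has about the same height in all 6.

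Cyp3a genes encode the main drug-oxidising enzymes of the gut. Cyp3a11 (chromosome 5, 146666183 to 146691430, mm9), the best known target of the pregnane X receptor in mice, lay at 1201, 702 and 188 FPKM in the controls 1 to 3 and at 1808, 844 and 84.98 FPKM in the mutants 1 to 3. The groups overlapped throughout, with library 1 the highest and library 3 the lowest in each. Its log2 change was -0.09 ± 1.40 (limma adjusted p = 0.999), and the exact permutation p of the group means was 1 (the smallest that 3 samples a group allow is 0.1). The sign depended on which library was left out: without mutant 3 the change was 1.19 and without mutant 1 it was -1.01, neither past the threshold. Cyp3a13 (chromosome 5, 138334161 to 138362847), apart from the rest of the Cyp3a cluster, was steadier at 823, 538 and 395 FPKM in the controls and 777, 679 and 448 FPKM in the mutants. The ratio of Cyp3a11 to Cyp3a13 was accordingly 1.46, 1.30 and 0.476 in controls and 2.33, 1.24 and 0.190 in mutants, so the 2 genes changed places as the more abundant in libraries 3 of both groups. Cyp3a25 (chromosome 5, 146788770 to 146821194) lay at 227, 151 and 74.9 FPKM in the controls and 228, 112 and 51.4 FPKM in the mutants, again lowest in libraries 3. The remaining members were low: Cyp3a59 ranged from 1.81 to 12.9 FPKM and Cyp3a44 from 0.490 to 8.99 FPKM, with library 3 lowest in both groups. Cyp3a16 differed in kind, with 64 fragments in control 3, 288 in mutant 2, 3 to 19 in the other libraries with reads and 0 in mutant 3, and no order by genotype or library number. Cyp3a44 and the Cyp3a41a models are known as female-predominant genes of the liver; Cyp3a44 lay at 4.72 and 0.490 FPKM in the 2 libraries with Xist, within or below the range of the others, and both Cyp3a41a models stayed below the filter with at most 0.790 FPKM.

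Cyp2c genes encode drug-oxidising enzymes and epoxygenases of arachidonic acid. Cyp2c29 (chromosome 19, 39361575 to 39405203), a known target of the constitutive androstane receptor in liver, had the widest spread of the abundant genes, with 35.5, 26.8 and 1.39 FPKM in the controls 1 to 3 and 239, 71.9 and 1.39 FPKM in the mutants 1 to 3. These values rest on 1467, 921 and 47 fragments in controls and 8004, 2698 and 46 in mutants. Mutants 1 and 2 lay above every control, while mutant 3 and control 3 were equal and 172-fold below mutant 1. Its log2 change was 1.38 ± 2.28 (limma adjusted p = 0.999, exact permutation p = 0.5, higher in 2 of 3 mutants than any control). Without mutant 3 it was 3.42 (adjusted p = 0.585), without mutant 1 it was -0.07, and without both libraries numbered 3 it was 2.07 ± 0.85 (adjusted p = 0.541). The authors' deposited table gave Cyp2c29 a fold of 5.16 with p = 0.217.

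The most abundant Cyp2c gene, Cyp2c65 (chromosome 19, 39135496 to 39168438), lay at 308, 245 and 220.0 FPKM in the controls and 303, 223 and 126 FPKM in the mutants. Cyp2c66, its neighbour with which it shares 20.2% of its 50-base windows, lay at 145, 85.3 and 55.9 FPKM in the controls and 168, 66.1 and 25.6 FPKM in the mutants. Both were lowest in the libraries numbered 3 and overlapped between genotypes. Cyp2c68 had the same order of libraries within each group over a narrower range. It lay at 43.1 and 45.95 FPKM in the libraries numbered 3 and 53.3 to 67.7 FPKM in the others. Cyp2c55 differed from them, with 62.8, 15.1 and 36.5 FPKM in the controls and 69.6, 7.17 and 7.16 FPKM in the mutants. It was highest in library 1 of both groups. Control 2 was the lowest control, and mutants 2 and 3 were about equally low. The other 4 genes stayed under 10 FPKM (Cyp2c40 at 5.87 to 9.02, Cyp2c67 at 1.68 to 4.05, Cyp2c44 at 0.613 to 2.56 and Cyp2c69 at 0.477 to 2.06 FPKM). Cyp2c69 had one of the 5 smallest p-values among genes with a higher mean in mutants (log2 change 0.58 ± 0.32, limma adjusted p = 0.999), on 17.7 to 68.3 fragments as rebuilt from coverage.

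Among Cyp2d genes, which oxidise many basic drugs and lie in a dense cluster of copies, a single gene was abundant. Cyp2d26 (chromosome 15, 82620537 to 82624675) lay at 253, 224 and 159.7 FPKM in the controls and 219.7, 319 and 170.2 FPKM in the mutants, lowest in the libraries numbered 3. Cyp2d22 followed at 6.83 to 12.0 FPKM. Cyp2d10 was uneven in the same way in both groups, with 1.88 FPKM in control 2 and 2.22 FPKM in mutant 2 against 0.360 to 0.617 FPKM elsewhere. Cyp2d9, a male-predominant gene of the liver, lay at 0.932 and 0.233 FPKM in the 2 libraries with Xist and at 0.324 to 1.11 FPKM in the others.

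Among the other genes of foreign compound metabolism, Cyp2b10 (chromosome 7, 26682683 to 26711643), the classical target of the constitutive androstane receptor, lay at 344, 272 and 67.5 FPKM in the controls and 235, 253 and 48.4 FPKM in the mutants. Each mutant was below the control of the same number, and library 3 was far the lowest in both groups. Its log2 change was -0.38 ± 0.95 (limma adjusted p = 0.999, and 0.483 with the replicate number as a block). Cyp1a1 is the classical target of the aryl hydrocarbon receptor. It lay at 11.9, 28.3 and 12.1 FPKM in the controls and 11.1, 14.3 and 12.5 FPKM in the mutants. Control 2 alone thus stood above the rest. The stomach markers Gkn2 and Tff1 were also high in control 2 alone, and their part in this was not tested. Cyp1b1, a related target, lay at 1.10 to 2.55 FPKM and was highest in library 3 of both groups. Cyp2s1, an epithelial gene outside the liver, was even at 28.5 to 43.4 FPKM. Cyp2j6, of an epoxygenase subfamily, lay at 54.7, 58.3 and 31.8 FPKM in the controls and 66.3, 70.8 and 38.2 FPKM in the mutants, with each mutant above the control of the same number. Cyp2j9 ranged from 1.64 to 2.81 FPKM. Cyp2u1, a hydroxylase of long-chain fatty acids, lay at 0.521, 0.606 and 0.835 FPKM in the controls and 1.51, 1.05 and 0.675 FPKM in the mutants (log2 change 0.43 ± 0.22, limma adjusted p = 0.999).

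Family 4 enzymes hydroxylate fatty acids and related lipids at the omega end of the chain. Cyp4a10 (chromosome 4, 115190892 to 115206254), a well-known target of the fatty acid receptor Ppara, lay at 11.5, 9.45 and 2.25 FPKM in the controls 1 to 3 and at 3.36, 4.48 and 2.14 FPKM in the mutants 1 to 3. Controls 1 and 2 were the highest, and control 3 fell among the mutants. The log2 change was -0.90 ± 0.61 (limma adjusted p = 0.999). Its neighbour Cyp4a32 had the same order of libraries at a lower level, with 1.53, 1.49 and 0.320 FPKM in the controls and 0.488, 0.813 and 0.224 FPKM in the mutants. The 2 genes are not independent measurements, since 23.9% of the windows of Cyp4a10 are found in Cyp4a32.

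Cyp4f14 (chromosome 17, 33042015 to 33054287), an omega-hydroxylase of leukotrienes and vitamin E, was the steadiest of the abundant P450 genes, with 370.0, 304 and 296 FPKM in the controls and 309, 363 and 320.4 FPKM in the mutants. Its quantification carried the Cufflinks status FAIL in 5 of the 6 libraries, and all 43 other genes carried OK in every library. Cyp4f16 lay at 103, 48.1 and 86.2 FPKM in the controls and 64.5, 58.1 and 99.1 FPKM in the mutants, and library 3 was not the lowest in either group; 24.8% of its windows occur in another transcript. Cyp4f13 lay at 28.6, 22.1 and 20.7 FPKM in the controls and 35.0, 37.5 and 19.6 FPKM in the mutants, with mutants 1 and 2 above every control (log2 change 0.32 ± 0.26). Cyp4f40 (chromosome 17, 32796428 to 32813425) lay at 23.8, 28.4 and 18.0 FPKM in the controls and 15.9, 16.4 and 20.3 FPKM in the mutants. Mutants 1 and 2 were below every control and mutant 3 was above control 3 (log2 change -0.39 ± 0.18, limma adjusted p = 0.999). Cyp4f17 was low but did not overlap, with 0.694, 0.681 and 0.786 FPKM in the controls and 0.539, 0.368 and 0.515 FPKM in the mutants, on 13 to 27 fragments per library (log2 change -0.33 ± 0.15, adjusted p = 0.999). Cyp4f15 (0.364 to 2.95 FPKM) and Cyp4f18 (0.313 to 2.87 FPKM) were lowest in library 3 of both groups. Of the other family 4 genes, Cyp4v3 lay at 155, 151 and 68.9 FPKM in the controls and 174, 207 and 81.3 FPKM in the mutants, and Cyp4b1, which adjoins the Cyp4a genes on chromosome 4, at 69.6, 67.9 and 35.5 FPKM in the controls and 40.6, 88.1 and 24.3 FPKM in the mutants. Library 3 was again lowest in each group for both.

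**Figure D5:**
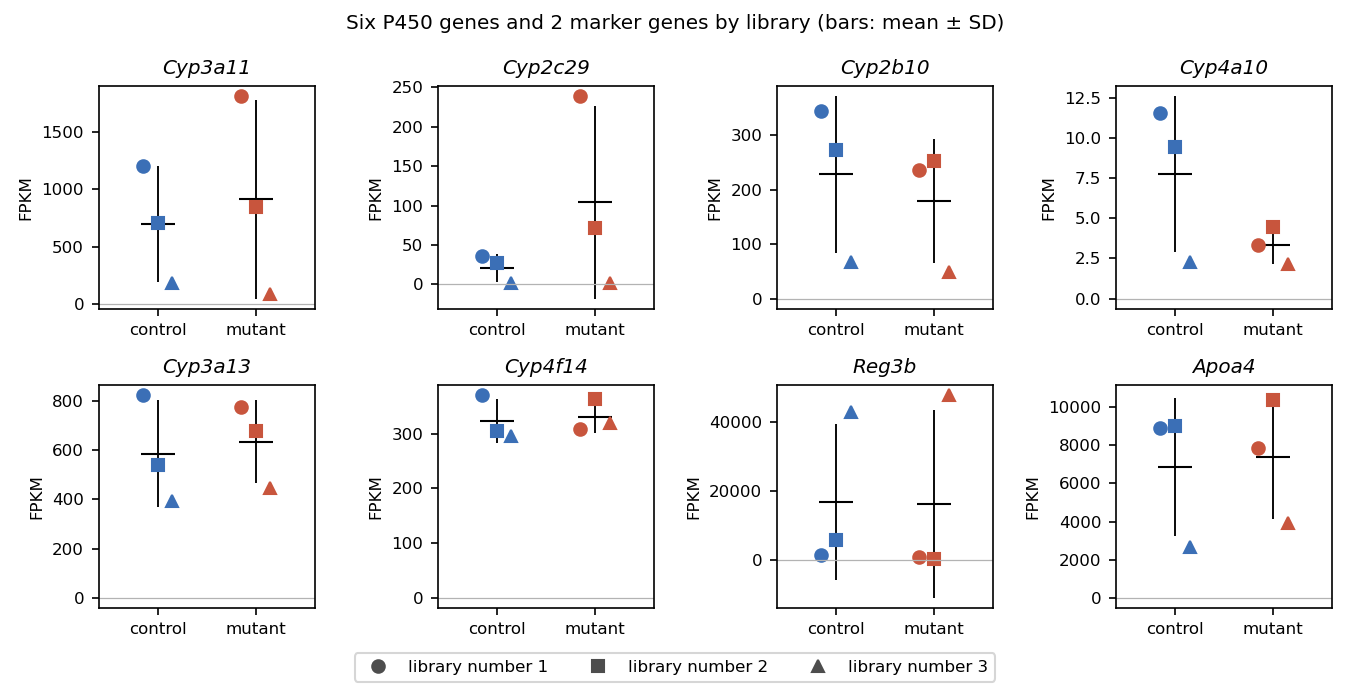
FPKM by library of 6 P450 genes and of the marker genes Reg3b and Apoa4, with the mean and SD of each group (n = 3). Library 3 (triangles) is lowest for Cyp3a11, Cyp2c29, Cyp2b10, Cyp4a10 and Apoa4 and highest for Reg3b in both groups, while Cyp4f14 stays between 296 and 370.0 FPKM.

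Among genes of sterol, vitamin and retinoid metabolism, the largest log2 change was that of Cyp26b1 (chromosome 6, 84521408 to 84543902), which encodes an enzyme that breaks down retinoic acid. It lay at 2.32, 5.95 and 5.33 FPKM in the controls and 1.31, 1.22 and 2.80 FPKM in the mutants. Mutants 1 and 2 were below every control and mutant 3 was above control 1. The log2 change was -1.12 ± 0.39 (limma unadjusted p = 0.0253, adjusted p = 0.999), and the authors' deposited table gave a fold of 0.397 with p = 0.0138 and an adjusted p of 1. Cyp39a1, an oxysterol hydroxylase, was close within controls (3.52, 3.82 and 3.59 FPKM) and lower in all 3 mutants (2.68, 2.36 and 3.27 FPKM), with a log2 change of -0.35 ± 0.14 (limma unadjusted p = 0.0424, adjusted p = 0.999). Cyp2r1, a vitamin D hydroxylase, was higher in all 3 mutants, at 1.13, 1.28 and 1.21 FPKM against 0.862, 0.843 and 0.989 FPKM, on 26 to 43 fragments per library (log2 change 0.29 ± 0.13, adjusted p = 0.999). Cyp27a1, the mitochondrial sterol hydroxylase, lay at 16.7, 22.9 and 9.97 FPKM in the controls and 24.5, 31.5 and 15.1 FPKM in the mutants. Every mutant exceeded the control of the same number while the groups overlapped (log2 change 0.52 ± 0.38, limma adjusted p = 0.999, and 0.140 with the replicate number as a block). The oxysterol hydroxylase Cyp7b1 ranged from 0.537 to 1.41 FPKM, and the orphan Cyp20a1 from 5.13 to 7.78 FPKM.

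At the edge of the filter, Cyp2b23 lay just inside, with 0.0756 to 0.560 FPKM, and Cyp2e1 just outside, with 0.183 to 0.624 FPKM. Of the 57 models below the filter, 11 were listed at 0 in every library, among them Cyp7a1, the first enzyme of bile acid synthesis, Cyp2f2 and Cyp19a1. Cyp1a2, abundant in liver, stayed at or below 0.410 FPKM, and Cyp24a1, which breaks down vitamin D, at or below 0.0152 FPKM. Those 5 were named after their values had been seen.

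With the replicate number as a block, 0 of 44 P450 genes passed, where 0.162% of all genes did, 0.0662% higher in mutants and 0.0956% lower. The smallest adjusted p was 0.140, and 9 of 44 genes had an unadjusted p under 0.05, against 6.76% of all genes. The setting without both libraries numbered 3 was chosen after the data had been seen and rests on 2 samples a group. Limma then called 2 of 44 P450 genes lower and 0 higher, against 1.47% of all genes called, 0.405% lower and 1.07% higher. Cyp4a10 then fell by 1.32 on the log2 scale (standard error 0.18, adjusted p = 0.00643), and Cyp4f40 fell by 0.67 (standard error 0.13, adjusted p = 0.0399). No other setting called either gene. In the same 4 libraries the tuft cell markers summed to 21.6 and 30.4 FPKM in the controls and 116 and 128 FPKM in the mutants, and the exocrine pancreas markers to 21072 and 20632 FPKM in the controls and 13318 and 8177 FPKM in the mutants; mutant 2 was the 1 library of the 4 with Xist. Their part in these calls was not tested. In that setting 14 of 44 P450 genes (31.8%) had an unadjusted p under 0.05, against 12.2% of all genes.

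Isoforms added little. Of 50 tested isoforms of the P450 genes, 0 passed with limma over 16213 isoforms, where 0.00617% of all isoforms did, and 2 had an unadjusted p under 0.05, against 3.79%. The Cyp4f14 isoform of 2034 bases was higher in all 3 mutants, with 180.2, 198 and 182 FPKM against 115, 141 and 151 FPKM in the controls (log2 change 0.47 ± 0.13, adjusted p = 0.999). It made up 31.1, 46.5 and 50.9% of the gene in controls and 58.4, 54.4 and 56.9% in mutants. An isoform 3 bases longer, of 2037 bases, lay at 64.7 FPKM in control 1 and at 0.413 to 7.08 FPKM in the other libraries. Summed, the 2 isoforms lay at 179.7, 142 and 158 FPKM in the controls and 181, 202 and 184 FPKM in the mutants, so that control 1 came close to mutant 1. The gene had 5 isoforms in the files, and the status FAIL given above applies to these values too.

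Genes that serve or regulate the P450 enzymes did not pass the test either. Of 48 listed electron donors, heme enzymes and regulators, 47 were tested and 0 passed, where 0.0221% of all genes did, with 32 higher and 15 lower by mean and a median log2 change of 0.07 against -0.02 over all genes. Por, the electron donor, lay at 199, 160.0 and 109.7 FPKM in the controls and 162, 154 and 114 FPKM in the mutants, lowest in the libraries numbered 3. Of 25 tested regulators, 11 were lowest in library 3 of both groups, where 15.2% of all genes were. Nr1i2 and Ahr were not among those with both libraries numbered 3 below all others: Nr1i2 lay at 71.2, 52.5 and 60.3 FPKM in the controls and 54.6, 69.9 and 67.7 FPKM in the mutants, and Ahr at 6.85 to 9.61 FPKM throughout. Nr1i3 followed the pattern of Por, at 31.2 and 32.8 FPKM in the libraries numbered 3 and 44.4 to 53.7 FPKM in the others. Hnf4a, a regulator of liver and gut P450 genes, lay at 202 to 231 FPKM in controls and 171 to 196 FPKM in mutants. Its groups did not overlap (log2 change -0.21 ± 0.12, limma adjusted p = 0.999). Of the 47 tested genes of the list, the only others that did not overlap were Nfe2l2 and Pgrmc2 (lower in mutants) and Hmox2, Nr1h3 and Dbp (higher). Over all genes, 7.75% did not overlap. Ppara lay at 17.6, 14.6 and 6.86 FPKM in the controls and 12.7, 13.0 and 11.8 FPKM in the mutants, so that control 3 alone was low. Dbp, a clock-controlled factor of the PAR bZIP family, was higher in all 3 mutants, at 61.7, 50.4 and 46.4 FPKM against 39.1, 22.8 and 21.9 FPKM (log2 change 0.95 ± 0.23, limma adjusted p = 0.999, and 0.0110 with the replicate number as a block). Its relative Hlf lay at 3.31, 3.69 and 1.91 FPKM in the controls and 6.96, 7.09 and 2.21 FPKM in the mutants, with an adjusted p of 0.999, and of 0.0212 without both libraries numbered 3.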

How the data were processed

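Whole duodenum RNA of 3 control and 3 mutant samples, grouped by their titles, was analysed from the deposited tables. The submitters' processing notes name the genome build mm9 and the tools TopHat, Cufflinks, CASAVA 1.8.2 and DESeq, and options, strand and counting rules are not given in the sources used here. The authors deposited FPKM per gene and isoform (Cufflinks, per the file headers) and a coverage signal per isoform. The authors' deposited comparison table, made with DESeq per its name, holds a signal (the mean normalized count of each group), a fold, a log2 fold and p-values before and after adjustment.

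The comparison ran on log2(FPKM + 0.5) of the 13596 genes that reached 0.5 FPKM in 3 or more libraries, so a fold of a low gene is understated. It used R 4.3.3 and limma 3.58.1 with a trend and a robust prior (statmod 1.5.0), a two-sided test and p-values adjusted over all these genes by Benjamini-Hochberg. Fragments per gene were rebuilt from coverage and FPKM; they were whole within 0.1 in every library for 29 of the 44 genes. A count that is not whole does not by itself mark reads shared between copies, since Cyp3a13, which shares no window, also has some. The test was also run on simulated data with independent noise for each gene and library. Those data held no shared shift of the libraries numbered 3, so the run cannot show how the test behaves under that pattern. Python 3.11.15, pandas 2.3.3, numpy 2.4.6, scipy 1.17.1 and matplotlib 3.10.9 served for the rest. Promoters came from RefSeq (GRCm38.p6) and were not joined to mm9 coordinates; shared windows of 50 bases were counted in annotated mm9 transcripts.

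Members and lists were chosen with earlier results of these data known. Genes named were Cyp2c29, Cyp3a11, the most abundant of each subfamily, the 5 of smallest p in each direction, those without overlap and those at the edge of the filter; the others, and the sex-linked genes, were added as values. Same-numbered libraries deviated together from their group means (correlations of 0.26, 0.25 and 0.58). For numbers 1 and 2 this does not mark pairs, since control 1 correlated with mutant 2 at 0.30 and control 2 with mutant 1 at 0.19. Deviations within a group sum to 0, so libraries 3 that stand apart in both groups also make the others correlate. The meaning of the numbers is not in the labels. The main comparison is unpaired, and the replicate number enters as a block in an alternative. Alternatives were other pseudocounts, filters and scalings, the replicate block, quality weights, no trend or robust prior, limma-voom, leaving out each library and, added later, both libraries numbered 3.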

Additional observations from a re-analysis of the deposited data

How the results depend on the processing

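No P450 gene was called under any of the planned settings, and 2 were called without both libraries numbered 3. Over all genes, 3 calls became 1 without the filter, 1 with upper quartile scaling, 19 with library quality weights, 0 with limma-voom (482 genes at an unadjusted p under 0.05) and 200 without both libraries numbered 3. Leaving out 1 library gave 2 to 68 calls, with 8 without mutant 1 and 68 without mutant 3. With the replicate block 22 genes were called, 0 of them P450 genes, and 1 partner or regulator gene (Dbp); without both libraries numbered 3 the latter count was also 1 (Hlf). The cause of these shifts was not tested. The block changed no other call reported here. Leaving out 1 library moved the log2 change of Cyp2c29 between -0.07 and 3.42 and that of Cyp3a11 between -1.01 and 1.19. The log2 ratio of summed FPKM ran from -1.65 to -0.82 for Cyp4a, and its sign changed for the other subfamilies. Of 747 values of the 42 other genes under these settings, 738 kept their side of the threshold and moved by less than the spread, 7 moved by more and 2 passed the threshold (Cyp4a10 and Cyp4f40); 27 of the 42 genes changed sign in at least 1 setting. Across all settings the median log2 change of all genes moved by at most 0.0427. This largest shift came without mutant 3, at -0.0638 against -0.0211 in the main fit. With 3 samples a group, genes of few fragments, such as Cyp2r1, Cyp4f17 and Cyp2c69, are limited by counting as well as by the spread between samples.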
